A study of Mus musculus with 18 samples.

Results

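Transcripts of the hypoxia-inducible factor (HIF) pathway were followed in NIH-3T3 mouse fibroblasts whose proteasome was blocked with carfilzomib (CFZ). The 9 transcripts, chosen by gene symbol by a rule that uses no measured value, though with earlier results of these data known, were Hif1a, Egln1, Egln3, Vegfa, Slc2a1, Bnip3, Adm, Ankrd37 and Ndrg1, out of 23420 gene rows in the count table. They did not move as a block. In CFZ, Vegfa rose at both times in both lines, by 1.72-fold to 3.47-fold (3 libraries a group), while Egln1 fell at both times in both lines. Bnip3 was called lower each time, but in WT cells its 6 h libraries overlapped DMSO and its 24 h call was lost in 2 of 13 alternatives. Ankrd37 was also called lower each time, but it held at most 10 counts in any CFZ library and entered the test through WT DMSO, where it was highest. Hif1a and Adm were above DMSO at 6 h and below it at 24 h in both lines. Ndrg1 was highest in Nrf1-KO cells after 24 h, 3.63-fold over DMSO. Slc2a1 rose 1.62-fold in WT cells at 6 h and 1.09-fold in Nrf1-KO cells, where the call was lost in 4 of 13 alternatives.

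HIF is a transcription factor made of an oxygen-regulated alpha subunit, such as HIF1A, and a stable beta subunit, ARNT. With oxygen present, prolyl hydroxylases of the EGLN family mark the alpha subunit, the VHL ubiquitin ligase binds the marked protein, and the proteasome destroys it. When oxygen is short the alpha subunit persists and switches on genes for glucose uptake, glycolysis, blood vessel growth and mitophagy, and also some of its own inhibitors. These data are of RNA, so HIF1A protein itself was not measured.

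The groups were WT NIH-3T3 cells and an NIH-3T3 line with Nrf1 (gene symbol Nfe2l1), the transcription factor that restores proteasome genes after inhibition, knocked out by CRISPR/Cas9. Each line was grown in DMSO, the vehicle, or in 200 nM CFZ, an irreversible inhibitor of the proteasome, for 6 h or 24 h. All 6 groups were immortalized cells in DMEM with serum, each with 3 biological replicates by the study's account. There were 18 libraries of 8333148 to 23917081 counts (median 14419832). How long the DMSO cells were kept is not given in the sources used here, so time and CFZ cannot be told apart in a comparison with DMSO. The knockout was 1 cell line, so a difference between the lines cannot be told apart from one between cell lines.

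Each of the 18 libraries was closest to its own group. Nfe2l1 transcript was lower in Nrf1-KO than in WT in every treatment, at 180 against 448 CPM (counts scaled to the size of each library) in DMSO, 419 against 642 at 6 h and 204 against 565 at 24 h, so the label held but the transcript was not lost. All 10 fibroblast markers were detected in every library, with a summed level of 27694 to 35962 CPM in DMSO, of 28297 to 32520 after 6 h of CFZ and of 8236 to 13179 at 24 h. Of 15 markers of other cell types, 9 stayed under 1 CPM, with Epcam and Cd3e at 0 throughout, while Krt14, a keratin, was present at 54.4 to 145 CPM and Cdh1, an epithelial cadherin, at 0.333 to 13.0. The sum of these 15 was lower in Nrf1-KO than in WT cells in every treatment, at 73.2 to 75.0 against 145 to 153 CPM in DMSO, 61.6 to 67.4 against 131 to 139 at 6 h and 95.6 to 99.8 against 135 to 143 at 24 h. The part of either marker list in the comparisons of the lines or of the times was not tested. In a bulk library, fewer cells of a type and less RNA per cell cannot be told apart.

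The shared feature of HIF targets is the response element, a short core (ACGTG or GCGTG) that HIF reads on either strand. RefSeq promoter windows on GRCm38.p6, from 250 bases before a gene's start to 50 after it, were found for 8 of the 9 genes, not for Ndrg1. At least 1 window of each of those 8 genes held a core, but so did 43.8% of the 32851 windows of all genes and 62.7% of the 11254 windows of genes tested, so its presence does not set them apart. ACGTG alone was in 19.6% of all windows and GCGTG in 32.4%. The sequences of 5 windows are shown because they span the directions seen below, from Vegfa, which rose, to Ankrd37, which fell most. They are written 5′ to 3′ along the gene with each core, on either strand, in capitals. Where CACGTG stands in capitals it holds a core on each strand and is also an E-box, the site of other factors, which 7.15% of all windows held.
Vegfa, window at chr17:46032328-46032627, minus strand: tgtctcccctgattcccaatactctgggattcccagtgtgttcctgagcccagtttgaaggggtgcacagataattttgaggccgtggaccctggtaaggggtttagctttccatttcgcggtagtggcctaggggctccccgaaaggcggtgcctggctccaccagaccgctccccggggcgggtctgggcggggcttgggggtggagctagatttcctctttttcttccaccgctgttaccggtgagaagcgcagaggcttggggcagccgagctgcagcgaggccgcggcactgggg
Slc2a1, window at chr4:119108495-119108794, plus strand: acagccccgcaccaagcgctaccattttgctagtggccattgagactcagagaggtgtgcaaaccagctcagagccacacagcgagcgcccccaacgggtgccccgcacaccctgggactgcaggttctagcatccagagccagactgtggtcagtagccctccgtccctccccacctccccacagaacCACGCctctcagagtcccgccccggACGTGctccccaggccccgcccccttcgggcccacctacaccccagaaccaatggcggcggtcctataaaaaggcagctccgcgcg
Egln1, window at chr8:124949205-124949504, minus strand: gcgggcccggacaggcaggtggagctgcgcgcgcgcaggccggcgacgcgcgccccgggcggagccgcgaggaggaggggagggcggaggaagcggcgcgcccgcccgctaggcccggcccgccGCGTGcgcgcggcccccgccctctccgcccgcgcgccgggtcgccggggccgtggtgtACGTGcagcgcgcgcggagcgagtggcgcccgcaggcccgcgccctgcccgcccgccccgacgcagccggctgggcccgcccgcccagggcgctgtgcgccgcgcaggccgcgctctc
Bnip3, window at chr7:138909457-138909756, minus strand: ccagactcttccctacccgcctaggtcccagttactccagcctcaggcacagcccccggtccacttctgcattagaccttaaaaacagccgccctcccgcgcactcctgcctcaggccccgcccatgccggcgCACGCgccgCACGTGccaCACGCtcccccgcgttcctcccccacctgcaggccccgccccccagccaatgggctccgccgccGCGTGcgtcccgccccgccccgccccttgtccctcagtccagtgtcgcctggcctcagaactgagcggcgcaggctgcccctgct
Ankrd37, window at chr8:45999801-46000100, minus strand: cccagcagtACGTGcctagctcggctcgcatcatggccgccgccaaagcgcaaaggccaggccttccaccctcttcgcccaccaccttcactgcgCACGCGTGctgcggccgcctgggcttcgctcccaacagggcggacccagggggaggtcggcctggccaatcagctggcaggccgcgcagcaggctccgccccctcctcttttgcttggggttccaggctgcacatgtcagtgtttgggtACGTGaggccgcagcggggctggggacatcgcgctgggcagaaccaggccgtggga
The Vegfa window at the outer start held no core, while a second RefSeq window of Vegfa, inside the gene at chr17:46025114-46025413, held 2. Slc2a1 and Egln1 held 2 each, with ACGTG 36 and 68 bases before their starts. Bnip3 held 5 core starts, of which 2 share the CACGTG, and Ankrd37 held 4, the nearest 6 bases before its RefSeq start. Of all windows, 8.93% held 3 or more. Hif1a held 3, Adm 2 and Egln3 1. Distances are to the RefSeq start of a window. By the GENCODE coordinates given below, the windows of Ankrd37 and Hif1a (chr12:73907617-73907916) also lie inside their genes. A match is a description of these letters and was not linked to the changes in RNA.

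The question put to the counts was which of the 9 transcripts changed with CFZ in each line, and by how much. Levels are CPM scaled by TMM, given as mean ± SD (n = 3), and tests are edgeR's quasi-likelihood test with Benjamini-Hochberg adjustment over the 11762 genes tested, where a gene was called at an adjusted p under 0.05. All 9 transcripts passed the filter on low counts, Ankrd37 only through WT DMSO, where it was highest, so its calls are counted here and support nothing. CFZ moved most of the transcriptome, so counts of calls say little about these 9. In WT cells 4 of them were called higher and 3 lower at 6 h, where 71.9% of all genes were called, 35.6% higher and 36.2% lower. At 24 h in WT cells 3 were higher and 6 lower, beside 83.8% of all genes (43.2% higher and 40.5% lower). Nrf1-KO cells had 5 higher and 3 lower at 6 h, beside 69.5% (34.5% and 35%), and 3 higher and 6 lower at 24 h, beside 85.5% (44.4% and 41.1%). From 6 h to 24 h of CFZ 2 were higher and 5 lower in WT cells, beside 72.4% (36.9% and 35.4%), and 4 higher and 4 lower in Nrf1-KO cells, beside 77% (38.7% and 38.3%). The median log2 fold change of the 9 was 0.11 and -0.24 at 6 h and 24 h in WT cells, against -0.019 and 0.023 over all genes, and 0.12 and -0.28 in Nrf1-KO cells, against -0.0082 and 0.030. Scaling by library size alone in place of TMM moved the median of all genes by -0.13 and -0.11 in WT and by -0.11 and -0.18 in Nrf1-KO cells at 6 h and 24 h, and the share of called genes that were higher from 49.6% to 35.4%, from 51.6% to 45.3%, from 49.7% to 36.4% and from 52.0% to 41.6%. Fewer genes changed by 2-fold. At 6 h in both lines Vegfa was called at least 2-fold higher, beside 9.63% of all genes past 2-fold in WT and 7.56% in Nrf1-KO cells. At 24 h Vegfa, Ndrg1 and Egln1 were past 2-fold in Nrf1-KO cells, beside 26.7% of all genes. Ankrd37 was past 2-fold in all 4 comparisons (25% of all genes in WT cells at 24 h), with the limit that its filter sets. The comparisons of 6 h and of 24 h share their DMSO libraries and are given side by side.

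**Figure D1:**
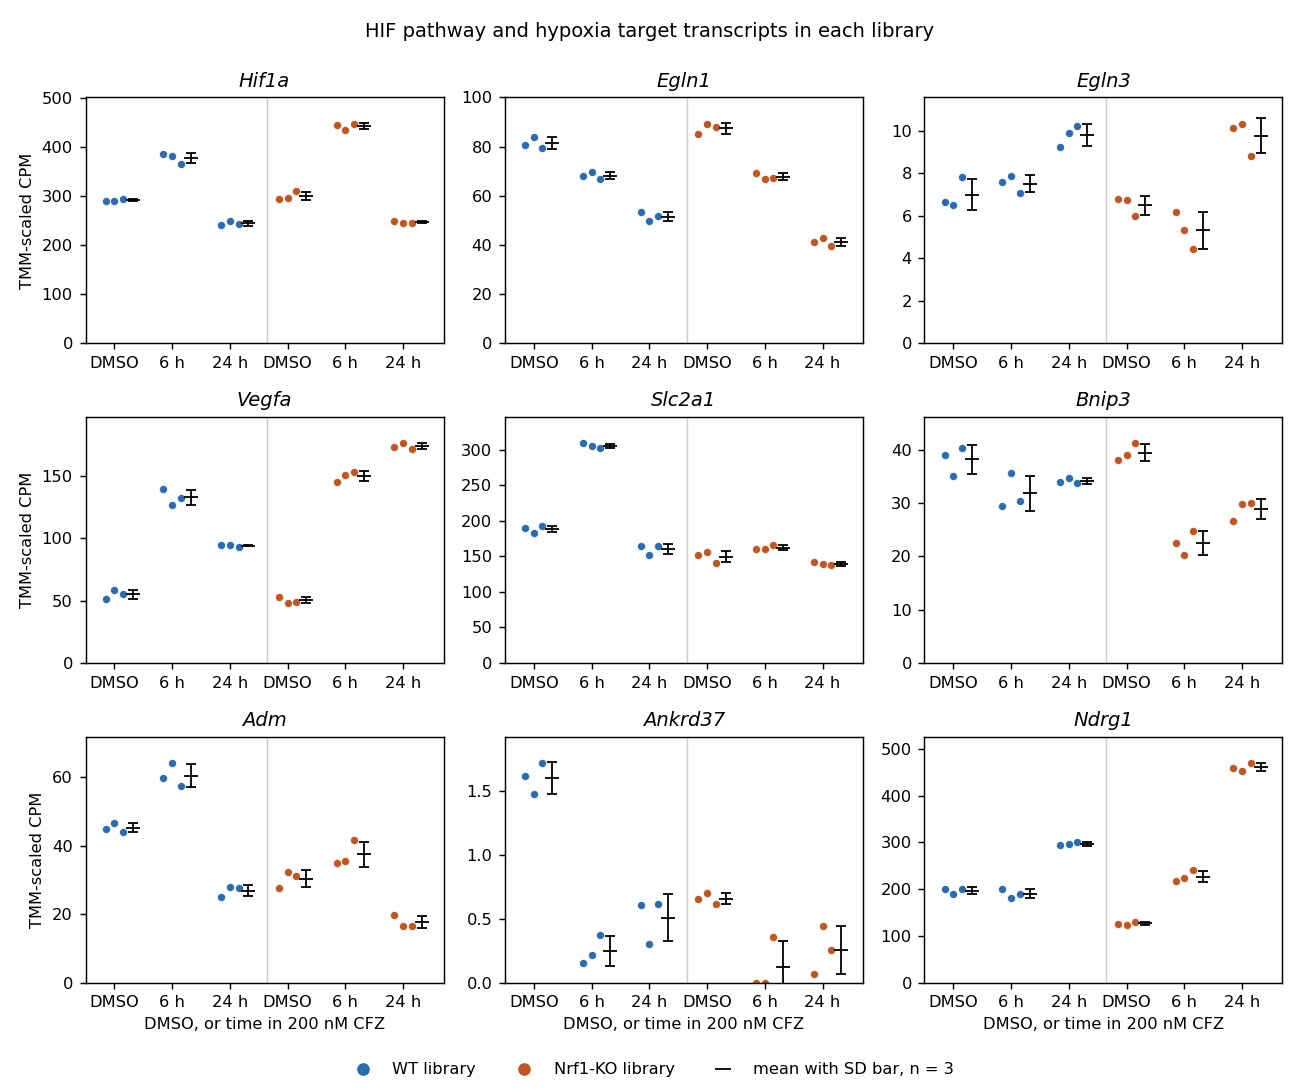
Level of the 9 transcripts in each of the 18 libraries, in TMM-scaled CPM on a linear axis that starts at 0, by line and by time in 200 nM CFZ. Points are libraries and the black marks are the mean and SD of 3; Hif1a peaks at 6 h in both lines, and Vegfa and Ndrg1 are highest in Nrf1-KO cells at 24 h, at 174 and 460 CPM.

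**Figure D2:**
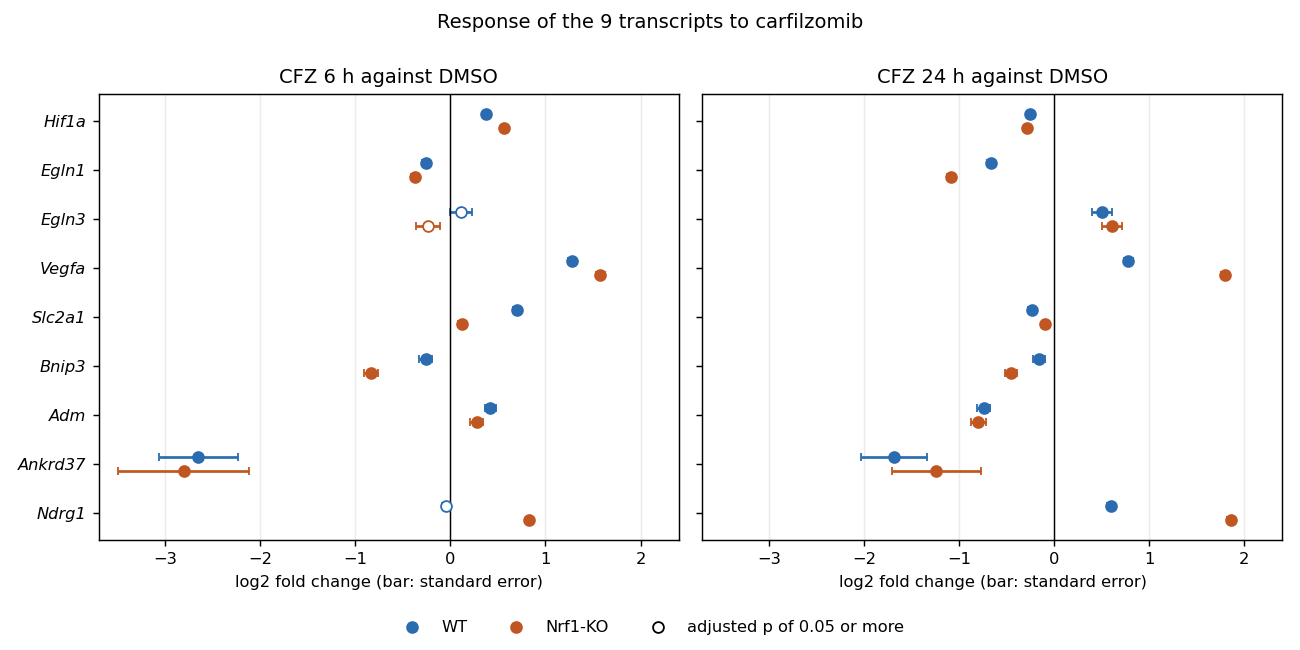
Log2 fold change of the 9 transcripts in CFZ against DMSO at 6 h (left) and 24 h (right), in WT (blue) and Nrf1-KO (orange) cells, with the standard error as a bar and open points for an adjusted p of 0.05 or more. Vegfa lies right of 0 and Ankrd37 left of 0 in all 4 comparisons, while Ndrg1 moves from -0.051 to 0.83 between the lines at 6 h.

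Hif1a, the oxygen-regulated alpha subunit (chr12:73901375-73947530, plus strand), rose and then fell below its starting level. In WT cells the 3 DMSO libraries held 291, 291 and 294 CPM, the 6 h libraries 386, 383 and 365, and the 24 h libraries 241, 250 and 244. In Nrf1-KO cells DMSO gave 295, 296 and 310 CPM, 6 h gave 445, 436 and 448, and 24 h gave 249, 246 and 245. Within a line no group overlapped another, and 6 h was the high point and 24 h the low point in each. The rise at 6 h was 1.30-fold in WT (log2 fold change 0.37, SE 0.032, edgeR adjusted p = 5.9e-12) and 1.47-fold in Nrf1-KO cells (0.56, SE 0.032, edgeR adjusted p = 3.92e-16). The rise was larger in Nrf1-KO cells by 0.19 on the log2 scale (SE 0.045, edgeR adjusted p = 0.00129). The fall at 24 h was -0.25 in WT (edgeR adjusted p = 2.3e-08) and -0.28 in Nrf1-KO cells (edgeR adjusted p = 1.44e-09), and its difference between the lines, -0.032 (SE 0.046), was not called (edgeR adjusted p = 0.57). In order of level, Nrf1-KO at 6 h stood above WT at 6 h, followed by the DMSO groups and then the 24 h groups. The DMSO groups of the lines, at 292 ± 1.72 and 300 ± 8.43 CPM, were not called different (edgeR adjusted p = 0.278), nor were the 24 h groups, which overlapped. Under scaling by library size alone the difference in DMSO was 0.089 (edgeR adjusted p = 0.0208) and that in the fall at 24 h was -0.11 (edgeR adjusted p = 0.0423), both called.

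Next, the hydroxylases that mark HIF1A were examined. Egln1 (chr8:124908587-124949324, minus strand), the main oxygen sensor of most cells and itself a HIF target, fell with time in both lines. Its WT libraries held 80.7, 84.0 and 79.5 CPM in DMSO, 67.9, 69.6 and 67.0 at 6 h, and 53.5, 49.6 and 51.7 at 24 h. Those of Nrf1-KO cells held 85, 89.3 and 88.2 CPM in DMSO, 69.3, 66.7 and 67.3 at 6 h, and 41.1, 42.9 and 39.6 at 24 h. No library of 1 time reached the range of another time of the same line. The log2 fold change was -0.26 (SE 0.041, edgeR adjusted p = 1.66e-06) at 6 h and -0.66 (SE 0.042, edgeR adjusted p = 1.77e-15) at 24 h in WT cells, and -0.37 (SE 0.041, edgeR adjusted p = 2.58e-09) and -1.09 (SE 0.042, edgeR adjusted p = 3.27e-21) in Nrf1-KO cells. The lines were not called different in this fall at 6 h (-0.11, SE 0.058, edgeR adjusted p = 0.131), and by 24 h it was deeper in Nrf1-KO cells by 0.42 on the log2 scale (difference -0.42, SE 0.060, edgeR adjusted p = 4.44e-07). Egln3 (chr12:54178981-54203860, minus strand), the hydroxylase most often described as hypoxia-induced, was scarce, at 4.44 to 10.3 CPM. At 6 h its libraries overlapped those of DMSO in both lines and it was not called (edgeR adjusted p = 0.37 in WT and 0.0928 in Nrf1-KO cells). The Nrf1-KO value at 6 h, -0.24, was called lower under scaling by library size alone (-0.35, edgeR adjusted p = 0.0141) or by the upper quartile (-0.31, edgeR adjusted p = 0.0281) and without Nrf1-KO CFZ 6 h replicate 1 (-0.37, edgeR adjusted p = 0.0339). At 24 h it rose to 9.79 ± 0.496 CPM from 6.99 ± 0.727 in WT (1.42-fold, edgeR adjusted p = 5.23e-05) and to 9.76 ± 0.821 from 6.50 ± 0.450 in Nrf1-KO cells (1.52-fold, edgeR adjusted p = 2.26e-06), with no overlap in either line. Egln2, the other hydroxylase of the family, fell in WT cells from 52.6 ± 1.23 to 45.1 ± 0.468 CPM at 6 h and 44.6 ± 0.643 at 24 h (-0.22 and -0.24, edgeR adjusted p = 6.25e-05 and 1.22e-05). In Nrf1-KO cells it fell at 6 h (-0.19, edgeR adjusted p = 0.000622) and was at -0.052 at 24 h (edgeR adjusted p = 0.253).

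The secreted products gave contrasting results. Vegfa (chr17:46016993-46032369, minus strand), the growth factor that drives new blood vessels, rose in every CFZ group. In WT cells DMSO gave 51.1, 58.6 and 55.1 CPM, 6 h gave 139, 127 and 133, and 24 h gave 94.6, 94.4 and 93.3. Nrf1-KO cells gave 53.0, 48.4 and 49.2 CPM in DMSO, 145, 151 and 153 at 6 h, and 173, 176 and 171 at 24 h. Every CFZ library was above every DMSO library, and the lines parted at 24 h, where WT had come down from its 6 h level and Nrf1-KO had gone further up. In WT cells the rise was 2.42-fold at 6 h (log2 fold change 1.28, SE 0.045, edgeR adjusted p = 9.29e-22) and 1.72-fold at 24 h (0.78, SE 0.046, edgeR adjusted p = 3.04e-16). In Nrf1-KO cells it was 2.98-fold (1.58, SE 0.045, edgeR adjusted p = 5.53e-24) and 3.47-fold (1.79, SE 0.043, edgeR adjusted p = 1.07e-26). From 6 h to 24 h Vegfa fell in WT (-0.50, edgeR adjusted p = 6.89e-12) and rose in Nrf1-KO cells (0.22, edgeR adjusted p = 1.44e-05). The response was larger in Nrf1-KO cells at 6 h (0.30, SE 0.064, edgeR adjusted p = 0.000343) and at 24 h (1.01, SE 0.064, edgeR adjusted p = 1.01e-14).

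Adm (chr7:110627661-110629820, plus strand) encodes adrenomedullin, a peptide that widens vessels. It ranged from 44 to 46.7 CPM in WT DMSO, 57.5 to 64.2 at 6 h and 25 to 27.9 at 24 h, and from 27.7 to 32.3, 35 to 41.7 and 16.6 to 19.8 in the same order in Nrf1-KO cells. Its groups did not overlap within a line, and it shared the order of Hif1a, high at 6 h and low at 24 h. The log2 fold change was 0.42 at 6 h (SE 0.058, edgeR adjusted p = 1.58e-07) and -0.74 at 24 h (SE 0.067, edgeR adjusted p = 8.14e-12) in WT cells, and 0.28 (SE 0.069, edgeR adjusted p = 0.000738) and -0.80 (SE 0.075, edgeR adjusted p = 1.97e-11) in Nrf1-KO cells. The response was not called different between the lines at 6 h (-0.14, SE 0.090, edgeR adjusted p = 0.224) or 24 h (-0.055, SE 0.10, edgeR adjusted p = 0.666).

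Slc2a1 (chr4:119108711-119137983, plus strand), the GLUT1 glucose transporter and a standard HIF target, showed a brief rise that was larger in WT cells. WT libraries held 190, 183 and 193 CPM in DMSO, 309, 305 and 303 at 6 h, and 165, 152 and 164 at 24 h. Nrf1-KO libraries held 152, 156 and 141 CPM in DMSO, 161, 160 and 167 at 6 h, and 142, 139 and 138 at 24 h. The 6 h WT libraries stood above every other library, and the Nrf1-KO groups lay close together, with DMSO and 24 h overlapping. At 6 h the rise was 1.62-fold in WT (log2 fold change 0.70, SE 0.037, edgeR adjusted p = 3.7e-17) and 1.09-fold in Nrf1-KO cells (0.12, SE 0.039, edgeR adjusted p = 0.00622), and it was smaller in Nrf1-KO cells (difference -0.57, SE 0.054, edgeR adjusted p = 3.24e-10). The small Nrf1-KO rise was not called without Nrf1-KO DMSO replicate 3 (0.077, edgeR adjusted p = 0.101), without the expression filter (0.074, edgeR adjusted p = 0.131), or under scaling by the upper quartile (0.049, edgeR adjusted p = 0.269) or by library size alone (0.011, edgeR adjusted p = 0.81). At 24 h Slc2a1 was below DMSO in WT cells (-0.24, SE 0.038, edgeR adjusted p = 1.11e-06). In Nrf1-KO cells the value at 24 h was -0.095 (edgeR adjusted p = 0.0243), which was not called without DMSO replicate 1 (-0.084, edgeR adjusted p = 0.0705) or 2 (-0.066, edgeR adjusted p = 0.144). The difference in response at 24 h was 0.14 (SE 0.054, edgeR adjusted p = 0.0224) and was not called under library size alone (0.067, edgeR adjusted p = 0.304) or without WT DMSO replicate 3 (0.13, edgeR adjusted p = 0.0596), WT CFZ 24 h replicate 2 (0.10, edgeR adjusted p = 0.117) or Nrf1-KO DMSO replicate 3 (0.098, edgeR adjusted p = 0.119).

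Bnip3 (chr7:138890836-138909519, minus strand), a mitochondrial protein that promotes mitophagy and is induced in hypoxia, was lower in CFZ. It ranged from 35.1 to 40.3 CPM in WT DMSO, 29.5 to 35.5 at 6 h and 33.7 to 34.7 at 24 h. In Nrf1-KO cells it ranged from 38 to 41.2 CPM in DMSO, 20.2 to 24.8 at 6 h and 26.7 to 30.1 at 24 h. The Nrf1-KO groups were apart from each other, while in WT cells DMSO and 6 h overlapped. The log2 fold change at 6 h was -0.26 (SE 0.067, edgeR adjusted p = 0.000868) in WT and -0.83 (SE 0.073, edgeR adjusted p = 1.25e-11) in Nrf1-KO cells, a deeper fall in Nrf1-KO cells (difference -0.57, SE 0.10, edgeR adjusted p = 2.6e-05). At 24 h it was -0.16 (SE 0.065, edgeR adjusted p = 0.0243) in WT and -0.45 (SE 0.064, edgeR adjusted p = 1.21e-07) in Nrf1-KO cells (difference -0.29, SE 0.092, edgeR adjusted p = 0.00664). The WT value at 24 h was not called without WT DMSO replicate 3 (-0.13, edgeR adjusted p = 0.101) or WT CFZ 24 h replicate 3 (-0.15, edgeR adjusted p = 0.0739). In the GENCODE annotation 22.3% of its exonic bases lie opposite Gm45507, and 16.9% of its stretches of the length of a read also occur in AC160336.1, Gm16439, Gm45507 or Gm6532, so its counts are uncertain to that extent.

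Ndrg1 (chr15:66929318-66969640, minus strand), a stress- and hypoxia-induced cytoplasmic protein, gave the greatest difference in response between the lines among the 9. WT libraries held 200, 189 and 201 CPM in DMSO, 199, 181 and 190 at 6 h, and 293, 296 and 301 at 24 h. Nrf1-KO libraries held 126, 124 and 130 CPM in DMSO, 217, 223 and 240 at 6 h, and 459, 452 and 470 at 24 h. The Nrf1-KO line started lowest and ended highest, and its groups were apart at each step, while WT DMSO and 6 h overlapped. The log2 fold change at 6 h was -0.051 (SE 0.039, edgeR adjusted p = 0.239) in WT and 0.83 (SE 0.040, edgeR adjusted p = 4.92e-18) in Nrf1-KO cells. The WT value at 6 h was called lower under scaling by the upper quartile (-0.16, edgeR adjusted p = 0.000476) and by library size alone (-0.18, edgeR adjusted p = 9.15e-05). At 24 h it was 0.59 (SE 0.038, edgeR adjusted p = 1.86e-15) in WT and 1.86 (SE 0.039, edgeR adjusted p = 1.6e-28) in Nrf1-KO cells. The response differed by 0.88 (SE 0.056, edgeR adjusted p = 3.28e-14) at 6 h and by 1.27 (SE 0.054, edgeR adjusted p = 5.49e-19) at 24 h.

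Ankrd37 (chr8:45996902-46005707, minus strand), an ankyrin repeat protein used as a marker of HIF activity, was rare and fell. Its 3 WT DMSO libraries held 1.62, 1.48 and 1.72 CPM, the 6 h libraries 0.152, 0.218 and 0.377, and the 24 h libraries 0.610, 0.300 and 0.620. Nrf1-KO libraries held 0.657, 0.700 and 0.617 CPM in DMSO, 0, 0 and 0.360 at 6 h, and 0.0704, 0.444 and 0.254 at 24 h. Every CFZ library was below every DMSO library of its line. Summed over the 3 libraries of a group, WT cells had 83 counts in DMSO, 10 after 6 h and 21 after 24 h of CFZ, and Nrf1-KO cells had 37, 3 and 13. By these sums, scaled for depth, the level at 6 h was 0.155 of DMSO in WT (95% counting interval 0.0717 to 0.300) and 0.132 in Nrf1-KO cells (0.0261 to 0.417), and at 24 h it was 0.307 (0.181 to 0.500) and 0.416 (0.203 to 0.801). These intervals cover counting error only. The fall was called in all 4 comparisons (edgeR adjusted p = 1.31e-06 and 4.94e-05 in WT, 0.000574 and 0.0157 in Nrf1-KO cells, at 6 h and 24 h), but without Nrf1-KO CFZ 24 h replicate 1 the last was not (-0.89, edgeR adjusted p = 0.0806). That value, -1.24 over all libraries, ranged from -1.95 to -0.89 as 1 library was left out, the deepest without Nrf1-KO CFZ 24 h replicate 2. All 3 counts of the Nrf1-KO group at 6 h came from its replicate 3, and without it the fitted value went from -2.81 to -6.37 against libraries at 0, so the size of that fall rests on 1 library. The filter scales its minimum of 10 counts to library size, and only in WT DMSO did all 3 libraries of a group reach it. Ankrd37 therefore entered the test through the group where it was highest. Its response was not called different between the lines, at -0.16 (SE 0.72, edgeR adjusted p = 0.891) and 0.45 (SE 0.65, edgeR adjusted p = 0.577), and the standard errors leave a wide range open to either sign. Of its exonic bases, 26.4% lie opposite Lrp2bp or Ufsp2, and whether strand was used in counting is not given in the sources used here.

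The lines were then compared within each treatment. In DMSO, Adm (-0.57, edgeR adjusted p = 3.21e-09), Ndrg1 (-0.63, edgeR adjusted p = 9.74e-15) and Slc2a1 (-0.34, edgeR adjusted p = 4.01e-09) were lower in Nrf1-KO than in WT cells. Ankrd37 was called lower too (-1.29, edgeR adjusted p = 0.000471), but it entered the test through WT DMSO, the higher group here. Its call is counted below and supports nothing. Vegfa was also called lower (-0.13, edgeR adjusted p = 0.0235) and Egln1 higher (0.10, edgeR adjusted p = 0.0204), but the Vegfa groups overlapped. Neither call was steady, as Vegfa was at -0.080 (edgeR adjusted p = 0.201) without WT DMSO replicate 2, -0.13 (edgeR adjusted p = 0.0536) without WT DMSO replicate 3, -0.11 (edgeR adjusted p = 0.0928 and 0.101) without Nrf1-KO DMSO replicate 2 or 3, and Egln1 at 0.087 (edgeR adjusted p = 0.0947) without WT DMSO replicate 3 and 0.091 and 0.099 (edgeR adjusted p = 0.0766 and 0.0631) without Nrf1-KO DMSO replicate 2 or 3. That made 5 lower and 1 higher of 9, beside 54.7% of all genes called (25.7% higher and 29.1% lower), with a median of -0.13 against -0.017. At 6 h of CFZ, Hif1a, Vegfa and Ndrg1 were higher in Nrf1-KO cells and Egln3, Slc2a1, Bnip3 and Adm lower, beside 61.3% of all genes called (30.5% higher and 30.8% lower). At 24 h Vegfa (0.88, edgeR adjusted p = 1.77e-18) and Ndrg1 (0.63, edgeR adjusted p = 3.91e-16) were higher and Egln1, Slc2a1, Bnip3 and Adm lower, beside 72% of all genes (35.6% and 36.4%). Ndrg1 therefore changed sides, from lower in DMSO to higher at both times in CFZ, and Adm stayed lower by 0.57 to 0.71 in all 3 treatments. In the test of the response itself 3 were higher in Nrf1-KO cells and 2 lower at each time, beside 38.3% of all genes at 6 h (19.8% and 18.4%) and 59.8% at 24 h (29.7% and 30%). Those were Hif1a, Vegfa and Ndrg1 against Slc2a1 and Bnip3 at 6 h, and Vegfa, Slc2a1 and Ndrg1 against Egln1 and Bnip3 at 24 h. The Slc2a1 value at 24 h was a smaller fall in Nrf1-KO cells, and its call was lost in 4 of 19 alternatives.

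**Figure D3:**
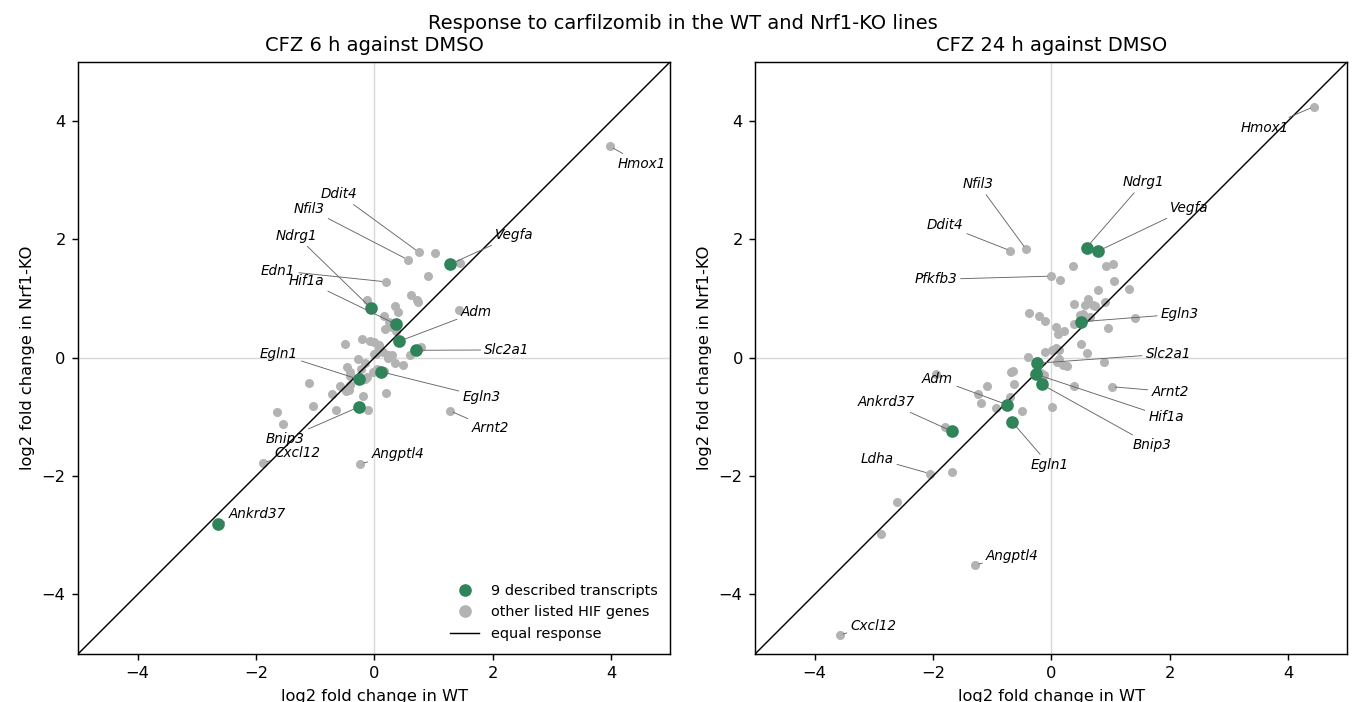
Log2 fold change in CFZ against DMSO in WT cells (horizontal) and in Nrf1-KO cells (vertical) at 6 h (left) and 24 h (right), for the 9 transcripts (green) and the other listed HIF genes (grey), with the line of equal response. At 24 h Ndrg1 (0.59 and 1.86) and Vegfa (0.78 and 1.79) lie above the line and Egln1 (-0.66 and -1.09) below it.

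The other genes of the pathway were read from 3 lists, of HIF control machinery, of glycolytic targets and of other targets. Of 18 machinery genes 15 were tested. The other alpha subunits were all but absent, with 2 counts of Epas1 and 3 of Hif3a over the 18 libraries. In CFZ at 6 h 6 were higher and 3 lower in WT cells and 7 and 5 in Nrf1-KO cells, and at 24 h 6 and 5 in WT and 6 and 6 in Nrf1-KO cells, with medians of 0.010 to 0.081 on the log2 scale. These calls stand beside 71.9% and 83.8% of all genes in WT and 69.5% and 85.5% in Nrf1-KO cells. Arnt2, a HIF beta subunit known mostly from neurons, rose from 7.49 ± 0.356 to 18.1 ± 1.25 CPM at 6 h and 15.2 ± 0.232 at 24 h in WT cells. In Nrf1-KO cells it fell from 3.98 ± 0.112 to 2.19 ± 0.611 and 2.83 ± 0.752 CPM. The response differed by -2.17 (SE 0.21, edgeR adjusted p = 4.63e-10) at 6 h and -1.51 (SE 0.19, edgeR adjusted p = 3.17e-08) at 24 h, and no library of a CFZ group overlapped the DMSO libraries of its line. Arnt, the common beta subunit, was lower in Nrf1-KO than in WT cells in DMSO (-0.30, edgeR adjusted p = 9.73e-08) and moved by no more than 0.16 on the log2 scale in the 4 comparisons of CFZ with DMSO. Siah2, a ubiquitin ligase that removes EGLN hydroxylases, rose at 6 h in WT (0.91, edgeR adjusted p = 8.94e-15) and in Nrf1-KO cells (1.38, edgeR adjusted p = 7.8e-20) and by 24 h was at -0.40 (edgeR adjusted p = 5.21e-06) and 0.010 (edgeR adjusted p = 0.883). Cited2, which keeps HIF from its coactivators, fell in all 4 comparisons (-0.25 to -0.63). Hif1an, the asparagine hydroxylase that also restrains HIF, rose at 24 h in WT (0.54, edgeR adjusted p = 7.02e-13) and in Nrf1-KO cells (0.74, edgeR adjusted p = 1.37e-16). Vhl, the ligase's recognition subunit, was not called in WT cells (0.081 and 0.017) and was slightly higher in Nrf1-KO cells (0.21 and 0.13). Of its partners in the ligase, Tceb1 (elongin C) rose in WT cells at 24 h (0.61, edgeR adjusted p = 2.95e-12) and was at 0.072 in Nrf1-KO cells (edgeR adjusted p = 0.202). Its response differed by -0.53 at 24 h (edgeR adjusted p = 2.66e-07) and by -0.44 at 6 h (edgeR adjusted p = 3.46e-05). Tceb2 (elongin B) fell at 24 h in WT (-0.50, edgeR adjusted p = 1.21e-11) and in Nrf1-KO cells (-0.91, edgeR adjusted p = 6.96e-18). Rbx1, the RING subunit, was higher in Nrf1-KO than in WT cells in DMSO (0.42, edgeR adjusted p = 4.62e-11). Crebbp, a HIF coactivator, rose in WT cells at 6 h (0.25, edgeR adjusted p = 0.0115) and 24 h (0.38, edgeR adjusted p = 0.00016). It also rose in Nrf1-KO cells at 6 h (0.60, edgeR adjusted p = 2.87e-07) and 24 h (0.91, edgeR adjusted p = 5e-12), where the 24 h libraries were spread, at 165, 129 and 107 CPM. Its response differed between the lines by 0.53 at 24 h (edgeR adjusted p = 0.000235). The corresponding difference at 6 h, 0.35 (edgeR adjusted p = 0.0224), was not called by DESeq2 (adjusted p = 0.0877) or without any 1 of 5 of the 12 libraries. Siah1a and Siah1b, relatives of Siah2 so alike that reads may be split between them, differed in response at 24 h by 0.43 (edgeR adjusted p = 0.000234) and -0.84 (edgeR adjusted p = 0.000136).

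Glycolytic targets were divided in direction. Of 19 genes 15 were tested, and in WT cells 6 were higher and 7 lower at 6 h and 7 and 6 at 24 h. In Nrf1-KO cells 1 was higher and 10 lower at 6 h and 5 and 9 at 24 h, with medians of -0.22 and -0.12, against -0.13 and 0.083 in WT cells. Over all genes 35.6% were higher and 36.2% lower at 6 h in WT cells and 43.2% and 40.5% at 24 h, and 34.5% and 35% and then 44.4% and 41.1% in Nrf1-KO cells. Ldha, which turns pyruvate into lactate, fell from 721 ± 19.2 to 459 ± 13.9 and 173 ± 1.61 CPM in WT cells and from 580 ± 5.66 to 313 ± 7.03 and 149 ± 7.40 in Nrf1-KO cells (log2 fold change at 24 h -2.06, edgeR adjusted p = 3.84e-30, and -1.96, edgeR adjusted p = 8.74e-30). Pdk1, the kinase that keeps pyruvate out of mitochondria, was also lower at 24 h, by -1.68 (edgeR adjusted p = 2.25e-19) and -1.93 (edgeR adjusted p = 8.32e-22). Hk2, the hexokinase that starts glycolysis, rose at both times in both lines, by 0.71 to 0.98. Aldoa and Pgam1, enzymes of its middle and later steps, rose in WT cells at both times. In Nrf1-KO cells Pgam1 fell at both times (-0.59 and -0.48). The Aldoa fall there was slight, at -0.12 (edgeR adjusted p = 0.00138) at 6 h and -0.070 (edgeR adjusted p = 0.0484) at 24 h. Its 24 h libraries overlapped those in DMSO. For Aldoa the means were 491, 685 and 907 CPM in DMSO, 6 h and 24 h in WT cells and 424, 388 and 403 in Nrf1-KO cells, and the response differed by -0.61 (edgeR adjusted p = 3.33e-12) and -0.96 (edgeR adjusted p = 1.31e-17). For Pgam1 it differed by -0.78 (edgeR adjusted p = 8.17e-14) and -0.85 (edgeR adjusted p = 1.55e-15). Pfkfb3, a regulator of the glycolytic rate, rose in Nrf1-KO cells at 24 h, from 19.1 ± 0.598 to 49.6 ± 1.10 CPM (1.38, edgeR adjusted p = 2.38e-21), and was at -0.0096 in WT cells (edgeR adjusted p = 0.911). Gpi1, the isomerase of the second step, rose in WT cells at 6 h (0.59, edgeR adjusted p = 2.47e-17) and 24 h (0.95, edgeR adjusted p = 2.69e-23), and in Nrf1-KO cells was at 0.050 (edgeR adjusted p = 0.161) and 0.50 (edgeR adjusted p = 6.78e-16). Pfkp, a phosphofructokinase, was lower in Nrf1-KO than in WT cells in DMSO (-0.40, edgeR adjusted p = 7.84e-09). At 6 h it fell in WT (-0.27, edgeR adjusted p = 6.28e-06) and was at -0.022 in Nrf1-KO cells (edgeR adjusted p = 0.725). At 24 h it rose in WT (0.22, edgeR adjusted p = 3.7e-05) and in Nrf1-KO cells (0.45, edgeR adjusted p = 1.25e-10). The log2 change was thus higher in Nrf1-KO cells by 0.25 at 6 h (edgeR adjusted p = 0.00463) and 0.23 at 24 h (edgeR adjusted p = 0.00265).

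Of 47 other targets 35 were tested, and they too went both ways. At 6 h 15 were higher and 14 lower in WT and 19 and 12 in Nrf1-KO cells, and at 24 h 18 and 15 in WT and 23 and 11 in Nrf1-KO cells, beside the same shares of all genes. The log2 change was called higher in Nrf1-KO than in WT cells for 17 and lower for 6 at 6 h, and for 23 and 5 at 24 h. The median difference was 0.22 and 0.35, against 0.017 and 0.0049 over all genes. A higher value can be a smaller fall, and a lower one a deeper fall. In that test 19.8% of all genes were higher and 18.4% lower at 6 h, and 29.7% and 30% at 24 h. Hmox1, the heme-degrading enzyme that many stress factors induce, gave the largest rise, from 67.8 ± 2.98 to 1073 ± 20.8 and 1463 ± 22.7 CPM in WT cells and from 48.6 ± 3.53 to 579 ± 11.6 and 923 ± 14.3 in Nrf1-KO cells. Ddit4, an inhibitor of mTOR signalling, went from 77.7 to 131 and 48.0 CPM in WT cells and from 45.5 to 158 and 160 in Nrf1-KO cells. Nfil3, a transcriptional repressor, went from 24.8 to 36.5 and 18.5 CPM and from 10.8 to 34.3 and 38.5. The log2 change in CFZ at 24 h was higher in Nrf1-KO cells by 2.5 (edgeR adjusted p = 4.3e-24) for Ddit4 and by 2.25 (edgeR adjusted p = 1.57e-19) for Nfil3. The levels of the lines at 24 h differed by 1.73 (edgeR adjusted p = 2.42e-25) and 1.07 (edgeR adjusted p = 2.29e-16). Edn1, the vessel-constricting endothelin, rose at 6 h in Nrf1-KO cells (1.28, edgeR adjusted p = 2.28e-13) and fell at 24 h in both lines (-2.88 and -2.97, edgeR adjusted p = 6.95e-18 and 1.56e-16). Cxcl12, a chemokine, fell at 24 h from 103 ± 6.24 to 8.54 ± 0.809 CPM in WT and from 37.4 ± 2.29 to 1.45 ± 0.332 in Nrf1-KO cells. Angptl4, a lipase inhibitor, fell further in Nrf1-KO cells (difference at 24 h -2.21, edgeR adjusted p = 9.44e-07). Jmjd6, a hydroxylase of lysine, rose in WT cells at 6 h (1.44, edgeR adjusted p = 3.03e-23) and in Nrf1-KO cells (1.60, edgeR adjusted p = 3.74e-24). Tfrc, the transferrin receptor, was higher in Nrf1-KO than in WT cells in DMSO (0.82, edgeR adjusted p = 3.7e-13), and at 24 h it rose by 1.41 in WT (edgeR adjusted p = 1.81e-20) and 0.67 in Nrf1-KO cells (edgeR adjusted p = 5.08e-13). Pgf, a relative of Vegfa, was rare, with a mean of 1.02 CPM in WT DMSO and lower ones elsewhere, and was called lower in WT cells at 6 h (-1.64, edgeR adjusted p = 0.000419), from 53 counts in DMSO to 13. Car9, often used as a marker of HIF activity, had 2 counts in all.

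**Figure D4:**
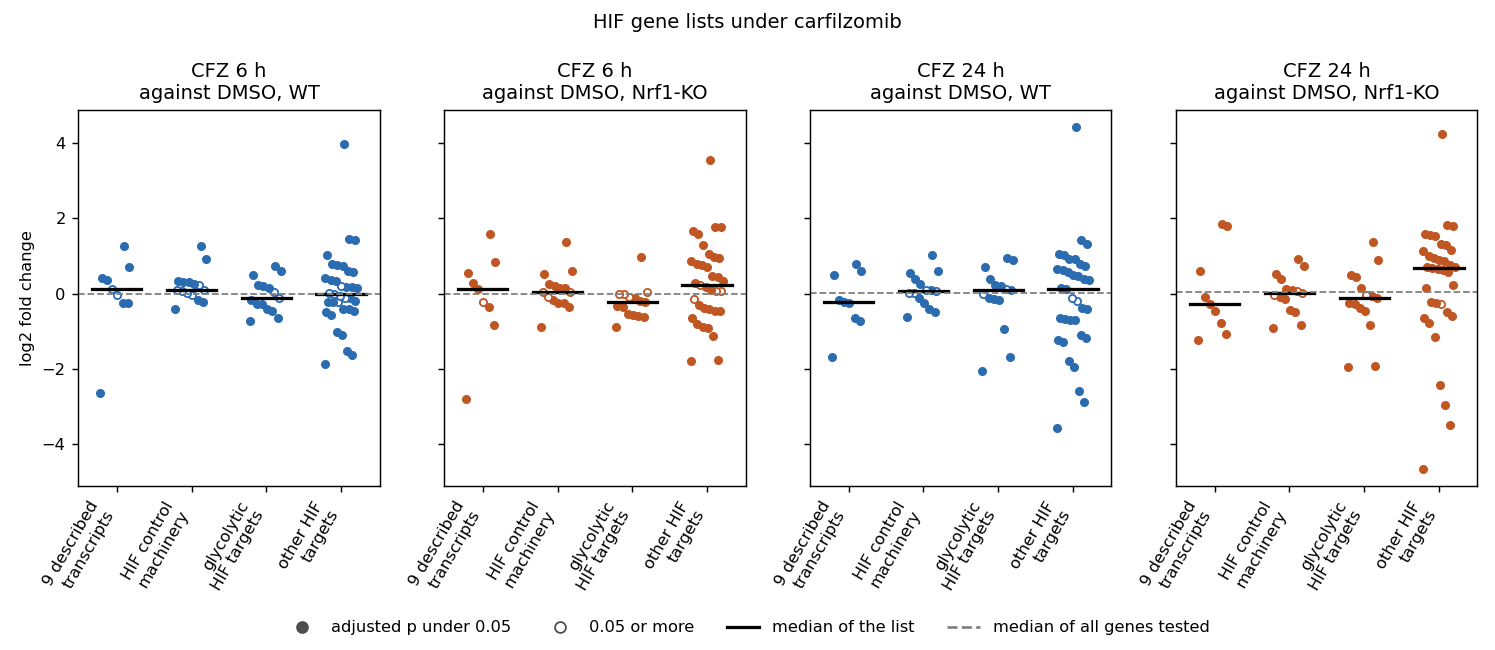
Log2 fold change in CFZ against DMSO for the 9 transcripts and the 3 lists of HIF genes, in WT cells (blue) and Nrf1-KO cells (orange) at 6 h and 24 h; each point is a gene, filled where its adjusted p is under 0.05, the black bar is the list's median and the dashed line the median of all genes tested. Each list holds genes on both sides of 0, and the highest point in each panel is Hmox1 (3.98 and 4.43 in WT cells).

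Several of these targets, among them Vegfa, Ddit4 and Nfil3, are also known to answer to other stress pathways, so genes of the integrated stress response, the ATF4 pathway that follows protein damage, were read beside them. All 8 listed genes were higher at 6 h in both lines, with medians of 0.92 in WT and 1.86 in Nrf1-KO cells, and at 24 h 6 were higher and 2 lower in WT and 7 and 1 in Nrf1-KO cells, with medians of 0.71 and 1.39. Over all genes 35.6% and 34.5% were higher at 6 h in WT and Nrf1-KO cells and 43.2% and 44.4% at 24 h. The log2 change was called higher in Nrf1-KO than in WT cells for 7 of 8 at each time, all but Atf4. Beside this stand 19.8% of all genes at 6 h and 29.7% at 24 h. A higher value was not always a larger response: at 24 h Asns fell less in Nrf1-KO (-0.29) than in WT cells (-0.63). Trib3 at 24 h fell in WT (-0.77) and rose in Nrf1-KO cells (0.43). Atf3 went from 7.97 ± 0.469 to 149 ± 7.68 and 136 ± 2.16 CPM in WT cells and from 3.08 ± 0.0174 to 213 ± 9.84 and 441 ± 29.5 in Nrf1-KO cells. Ddit3, the death-linked factor CHOP, went from 48.9 ± 0.731 to 124 ± 3.85 and 135 ± 7.58 CPM and from 32.9 ± 0.899 to 179 ± 3.41 and 321 ± 16. Sesn2, an antioxidant stress protein, was likewise highest in Nrf1-KO cells at 24 h, at 116 ± 6.41 CPM. Those 3 shared their highest group with Vegfa and Ndrg1, and the other 5 did not. Atf4, Trib3, Asns and Chac1 had their highest means in Nrf1-KO cells at 6 h, at 969, 204, 557 and 190 CPM, where Asns overlapped WT at 6 h, and Nupr1 in WT cells at 24 h, at 188. The part of the stress response in the HIF target levels was not tested.

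To place each profile, the genes whose 6 group means were most like it were looked up among all genes tested with a mean count of at least 50, after each gene was centred on its own mean. The likeness is the root-mean-square difference of log2 level over the 6 groups. The nearest were 4632415L05Rik and Zfp449 for Hif1a, Trmt5 and Atxn7l3b for Egln1, Zfp281 and Las1l for Egln3, 2410002F23Rik and Sash1 for Vegfa, and Trex1 and 1190002N15Rik for Slc2a1. For Bnip3 they were Cd99l2 and Pik3r2, for Adm Creb3l1 and Nexn, for Ankrd37 Pde5a and 9930012K11Rik, and for Ndrg1 Agpat4 and Srgap1. The nearest gene was 0.041 away for Hif1a and 0.37 away for Ankrd37, beside their own spreads over the groups of 0.31 and 0.99. None of the 9 was a candidate neighbour of another.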

How the data were processed

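RNA of 18 NIH-3T3 samples was sequenced as stranded, paired-end mRNA libraries and run through RNA Express (STAR and DESeq2). The authors deposited 1 table of raw counts per gene symbol (23420 rows, 6577 with no count; 2 symbols, turned into dates, stand on more than 1 row). Build, annotation, versions and use of strand are not given in the sources used here. Gene coordinates came from GENCODE M21 on GRCm38, matched by symbol, and promoters from RefSeq (GRCm38.p6).

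Counts were filtered (filterByExpr, minimum count 10, minimum total 15), scaled by TMM and fitted by quasi-likelihood with a mean for each of the 6 groups and a spread shared by the 18 libraries (edgeR 4.0.16, R 4.3.3), with Benjamini-Hochberg adjustment in each of 11 comparisons. P-values measure the spread between these libraries, since separate cultures are not described. Among the HIF pathway transcripts chosen by symbol, counting error is small except for Ankrd37 and Egln3. Some genes of the lists also had few counts in a group, so counting error weighs on their values too. Summed over a group, Pgf had 11 counts in WT cells at 24 h of CFZ and Arnt2 had 74 in Nrf1-KO cells at 6 h. In Nrf1-KO cells at 24 h Angptl4 had 30, Edn1 54 and Cxcl12 70.

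The members and lists were chosen with earlier results of these data known. Named were the members, their 2 nearest profiles, the targeted gene, the stress response genes, and list genes among the 2 largest rises or falls called in a comparison; cell markers were counted. Vhl, Epas1, Hif3a and Car9 fell outside this rule and were named after their values were seen. The scripts were tested on simulated data. Alternatives were DESeq2 1.42.0, upper-quartile scaling, library size alone, no filter, a model without the groups not compared, a mean count of at least 10, a block for the replicate number, and leaving out each library in turn.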

Additional observations from a re-analysis of the deposited data

Results flagged for a closer look

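By edgeR's test of the difference, the response to CFZ was called different between the lines for 5 of the 9 transcripts at each time. The difference is the log2 change in Nrf1-KO cells minus that in WT cells. Beside this stand 38.3% of all genes called at 6 h and 59.8% at 24 h, so the counts say little about these 9. At 6 h the response was larger in Nrf1-KO cells for Ndrg1 (0.88, edgeR adjusted p = 3.28e-14), Vegfa (0.30, edgeR adjusted p = 0.000343) and Hif1a (0.19, edgeR adjusted p = 0.00129), and lower for Slc2a1 (-0.57, edgeR adjusted p = 3.24e-10) and Bnip3 (-0.57, edgeR adjusted p = 2.6e-05). At 24 h it was higher for Ndrg1 (1.27, edgeR adjusted p = 5.49e-19) and Vegfa (1.01, edgeR adjusted p = 1.01e-14), and lower for Egln1 (-0.42, edgeR adjusted p = 4.44e-07) and Bnip3 (-0.29, edgeR adjusted p = 0.00664). The Slc2a1 value at 24 h was also called higher (0.14, edgeR adjusted p = 0.0224), as a smaller fall in Nrf1-KO (-0.095) than in WT cells (-0.24). That call was lost in 4 of 19 alternatives. At 6 h the Egln3 response was not called different (-0.35, edgeR adjusted p = 0.102), but it was without Nrf1-KO CFZ 6 h replicate 1 (-0.48, edgeR adjusted p = 0.0451).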

How the results depend on the processing

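The number of the 9 transcripts called stayed within 1.5 times its main value in all 11 comparisons under every alternative, and so did the number of all genes called. The direction turned in 18 values, none of them called. Without an expression filter Egln3 at 24 h between the lines was 0.0043; DESeq2 gave 0.0018 for it and 0.0060 for Egln1 at 6 h between the lines; upper-quartile scaling gave 0.029 and 0.040, and a fit of the compared groups alone 0.0011 for Egln3. Under library size alone Egln1 at 6 h was 0.059, Egln3 in WT cells at 6 h -0.018 and Hif1a at 24 h between the lines -0.021. Leaving out 1 library turned Bnip3 in DMSO between the lines (-0.00059 without WT DMSO replicate 2; leave-one-out range -0.00059 to 0.092), Egln1 at 6 h (-0.030 to 0.0046), Hif1a at 24 h (-0.0030 to 0.030), Egln3 at 24 h (-0.048 to 0.071) and the difference in the Ankrd37 response at 6 h (-3.71 to 0.51) and 24 h (-0.23 to 0.83). Vegfa in DMSO between the lines was also not called by DESeq2 (adjusted p = 0.0548), under library size alone (0.152) or in the compared groups alone (0.0748). Ankrd37 was not among the genes left by a mean count of at least 10.

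Deviations of same-numbered libraries correlated at 0.014 on average (-0.049 to 0.097 over 45 pairs), and 9 of 18 libraries correlated best with their own number. The number to be found without pairing was not worked out, so these values do not settle whether libraries were paired by number. With the replicate number as a block all 99 member values kept their direction and call (Vegfa at 24 h in Nrf1-KO cells was 1.79), and 10091 genes were called there in place of 10055.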
